A study of Mus musculus with 12 samples.

Results

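The mitochondrial beta-oxidation genes described here are 32 genes chosen by name, as the rows of the deposited liver count tables whose gene symbol stands in a list of acyl-CoA synthetases, carnitine shuttle proteins, acyl-CoA dehydrogenases, hydratase to thiolase enzymes, auxiliary enzymes and electron carriers. All 32 were found among the 24787 genes of the tables, and all 32 passed the filter on low counts that left 14172 genes for testing. Their lowest count in any of the 12 libraries was 35, that of Cpt1b in an ND library, so no member was tested only because of the group in which it was high.

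RNA from flash-frozen mouse liver was sequenced in 3 groups of 4 libraries. HFD+MEC1 mice ate a high-fat diet (HFD) and received MEC1, for which only this code name is given, at 0.5 mg/kg by intraperitoneal injection each day. HFD mice ate the same diet and received vehicle by the same route, and ND mice ate a normal diet (ND). All animals were of the C57Bl/6 strain with no allele or transgene named; the diets ran for 2 months before the HFD mice were randomised to vehicle or MEC1. The sources used here give neither the length of dosing, the sex and age of the mice nor whether ND mice were injected, so diet and injection cannot be told apart in the comparisons with ND. The labels do not say that each library came from a separate animal, so p-values measure only the spread between these libraries, which may be technical in part.

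Beta-oxidation is the stepwise shortening of fatty acids in the mitochondrial matrix, which yields acetyl-CoA and reduced electron carriers. Fatty acids are first joined to coenzyme A, then handed to carnitine by carnitine palmitoyltransferase 1 on the outer membrane, carried across the inner membrane and returned to coenzyme A by carnitine palmitoyltransferase 2. In the liver the pathway feeds ketone body synthesis in fasting, its entry step is inhibited by malonyl-CoA, and many of its genes are known targets of the nuclear receptor PPAR-alpha.

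The libraries held 39916405 to 51340317 counts each. Values below are CPM, the usual scaled read counts, taken relative to library totals adjusted by TMM factors; changes are log2 fold changes with their SE from edgeR's quasi-likelihood fit to all 12 libraries. A gene is said to rise or fall only at an adjusted p under 0.05, with Benjamini-Hochberg adjustment over the 14172 genes. Hepatocyte markers identified the tissue as labelled: the 7 listed markers that the tables held summed to 74075 to 99854 CPM in HFD+MEC1, 91653 to 102835 CPM in HFD and 88651 to 105380 CPM in ND. Of these 7, Ass1 alone passed a test: its log2 fold change was -1.10 in HFD+MEC1 against ND and -0.72 in HFD against ND (adjusted p = 0.00514 and 0.039). The 8 skeletal and heart muscle markers summed to at most 0.184 CPM in any library, with 2 at 0 everywhere. Of the 6 adipocyte markers 3 were at 0 everywhere, and the list summed to 1.03 to 4.59 CPM over all libraries, most of it Adrb3. Sinusoidal endothelial markers summed to 277 to 326 CPM in HFD+MEC1, 244 to 302 CPM in HFD and 179 to 272 CPM in ND, and Kupffer cell markers to 370 to 496, 313 to 491 and 259 to 379 CPM in the same order. Cholangiocyte markers summed to 36.9 to 89.9 CPM in HFD+MEC1, 39.6 to 59.3 CPM in HFD and 60.6 to 90.3 CPM in ND, with all 5 negative and none past the threshold in HFD against ND. In HFD+MEC1 against ND the endothelial marker Clec4g rose (log2 fold change 0.49, adjusted p = 0.0306) and the cholangiocyte marker Epcam fell (-1.59, adjusted p = 0.0148). Each was the only marker of its list to pass. All 7 endothelial markers were positive there, while 4 of the 5 cholangiocyte markers were negative and Sox9 was positive (0.34, adjusted p = 0.614). Epcam was scarce, at 0.550 to 0.924 CPM in HFD+MEC1. The part of these cell types in the results was not tested. In a whole-tissue measurement, fewer cells of a type and less RNA per cell cannot be told apart. HFD+MEC1 replicate 3 stood farthest from the other libraries on the second principal component, at -55.9, so counts are given below with and without single libraries where these move them.

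Promoter sequences were available from RefSeq (build GRCm38.p6) for 27 of the 32 genes, as 28 windows from 250 bases before to 50 after a start site. A set of 4 is shown because the genes rose together on HFD and represent the entry step (Cpt1a), transport (Slc25a20), the first oxidation (Acadm) and the trifunctional protein (Hadhb). In the Cpt1a window (chr19:3323051-3323350, plus strand) and the Acadm window (chr3:153944594-153944893, minus strand), capitals mark the letters AGGTCA, the half-site of many nuclear receptors, which lie on the other strand and so read TGACCT. In the Slc25a20 window (chr9:108661886-108662185, plus strand), capitals mark the best match to a DR1 element, 2 copies of AGGTCA in the same direction with 1 base between them, with 2 mismatches. In the Hadhb window (chr5:30155003-30155302, plus strand), capitals mark the 85 bases that separate the Hadha and Hadhb genes in the GENCODE M21 annotation. These genes are transcribed away from each other.
Cpt1a: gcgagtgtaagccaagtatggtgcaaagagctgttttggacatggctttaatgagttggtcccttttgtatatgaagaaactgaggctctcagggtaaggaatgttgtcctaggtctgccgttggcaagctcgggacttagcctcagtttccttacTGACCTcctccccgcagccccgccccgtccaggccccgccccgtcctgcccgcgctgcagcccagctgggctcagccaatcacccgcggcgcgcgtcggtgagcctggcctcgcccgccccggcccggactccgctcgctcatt
Acadm: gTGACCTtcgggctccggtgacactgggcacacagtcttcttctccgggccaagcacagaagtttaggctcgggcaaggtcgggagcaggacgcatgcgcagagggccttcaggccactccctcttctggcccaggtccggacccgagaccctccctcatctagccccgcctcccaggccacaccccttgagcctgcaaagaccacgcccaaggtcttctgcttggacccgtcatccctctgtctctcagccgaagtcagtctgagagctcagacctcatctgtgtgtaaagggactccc
Slc25a20: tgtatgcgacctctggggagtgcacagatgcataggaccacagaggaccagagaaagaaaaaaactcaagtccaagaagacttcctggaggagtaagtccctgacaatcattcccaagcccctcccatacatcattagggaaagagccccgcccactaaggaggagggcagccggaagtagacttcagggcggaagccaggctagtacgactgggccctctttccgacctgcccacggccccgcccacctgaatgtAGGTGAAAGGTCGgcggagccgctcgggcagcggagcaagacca
Hadhb: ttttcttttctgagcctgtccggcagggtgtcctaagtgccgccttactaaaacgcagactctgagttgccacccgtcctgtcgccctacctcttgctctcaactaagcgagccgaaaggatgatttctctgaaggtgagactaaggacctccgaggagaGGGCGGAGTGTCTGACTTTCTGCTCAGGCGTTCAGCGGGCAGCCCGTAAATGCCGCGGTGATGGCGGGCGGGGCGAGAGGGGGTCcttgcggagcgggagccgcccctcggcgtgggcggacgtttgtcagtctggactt

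Over both strands, AGGTCA was found in 4 of the 28 windows (14.3%; Cpt1a, Acadm, Echs1 and Acadvl), against 16.3% of all 32851 windows in the table. In the Cpt1a window the match began 94 bases before the RefSeq start site, and in the Acadm window 249 bases before that of Acadm. The whole Cpt1a window lies inside the Cpt1a gene of GENCODE M21, which begins at 3322334, so the 2 annotations place its start differently. The letters TNAAGGTCA, which contain AGGTCA and are the extended half-site of estrogen-related receptors, were in 0 of the 28 windows, against 1.28% of all windows. An exact DR1 was in 0 of the 28 windows, against 0.0396% of all, and a DR1 with up to 2 mismatches was in 3 (10.7%; Echs1, Etfa and Slc25a20), against 3.86% of all. The Slc25a20 match covers bases 257 to 269 of its window, after the start site. These matches are a description of letters in short windows, and binding was not measured. The windows of beta-oxidation genes were richer in G and C, with a median of 61.0% against 52.7% over all windows, and held a median of 17.5 CpG dinucleotides against 7.0.

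Levels can be compared between genes only per length, for which the deposited RPKM values were used. The most abundant member was Acaa2, the thiolase of the last step, at 417 ± 65.6 RPKM in HFD+MEC1, 459 ± 35.1 in HFD and 368 ± 22.2 in ND (mean ± SD, n = 4 each). Acsl1, the main long-chain acyl-CoA synthetase of liver, averaged 219.6 ± 66.8 RPKM in HFD+MEC1, 225 ± 33.6 in HFD and 189.9 ± 21.0 in ND. Etfb and Etfa, the subunits of the electron transfer flavoprotein, came next in ND, at 176 ± 9.85 and 158 ± 7.59 RPKM. At the other end stood Cpt1b, the muscle form of the entry enzyme, at 0.511 ± 0.174 RPKM in HFD+MEC1, 0.674 ± 0.199 in HFD and 0.285 ± 0.112 in ND. Cpt1a, the liver form, averaged 80.1 ± 12.1, 68.3 ± 7.44 and 32.7 ± 4.29 RPKM in the same groups, so the liver form was the far more abundant of the pair in all 12 libraries. Muscle markers were near 0 in every library, as given above. Summed over the 32 genes, RPKM came to 2583.5 ± 473 in HFD+MEC1, 2925 ± 271 in HFD and 2146 ± 82.4 in ND. No TMM factor was applied to these RPKM values, which limits comparison between groups. With log2(RPKM + 0.1) the median log2 fold change of all tested genes was 0.08 in HFD against ND and 0.07 in HFD+MEC1 against ND. With TMM those medians were -0.00 and 0.00.

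**Figure D1:**
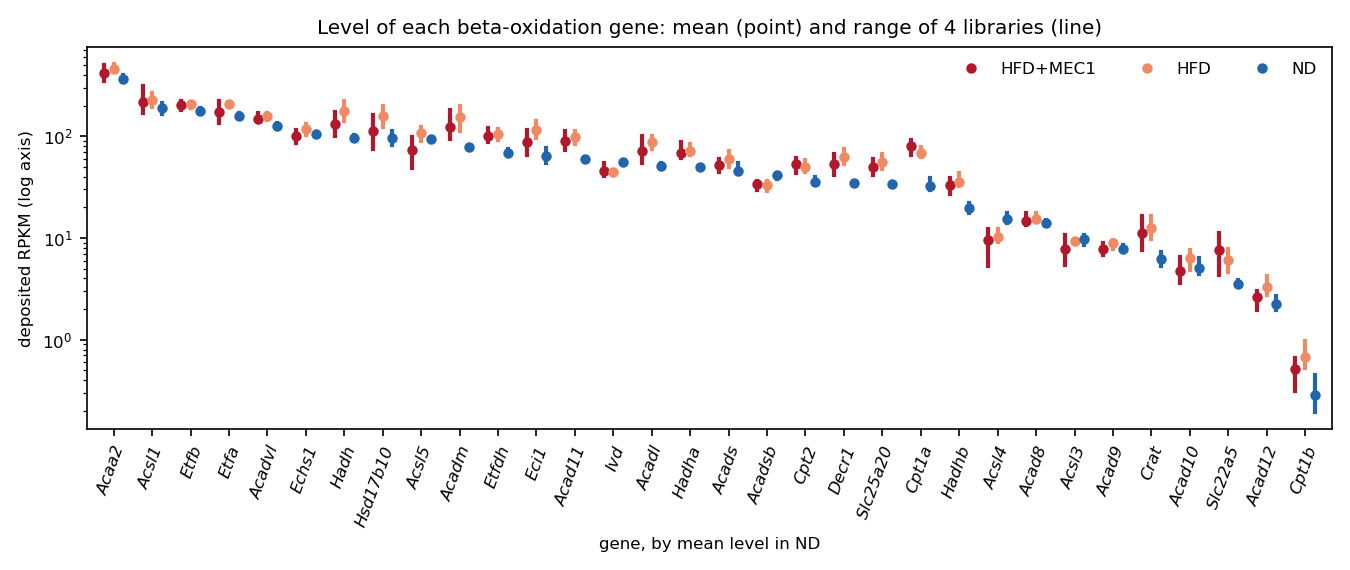
Deposited RPKM (log axis) of each of the 32 genes, ordered by mean in ND, with points for group means and lines for the range of 4 libraries. Levels run from Acaa2 at 368 RPKM to Cpt1b at 0.285 RPKM in ND.

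HFD against ND addresses the diet, together with any effect of vehicle injection. Of the 32 genes, 14 rose on HFD, 2 fell and 16 did not pass, while over all tested genes 3.35% rose and 2.95% fell. The median log2 fold change of the 32 was 0.40, against -0.00 over all tested genes. Positive values were held by 28 of the 32, against 49.4% of all tested genes. The HFD and ND ranges of CPM did not overlap for 23 of the 32, with 20 higher and 3 lower in HFD; over all tested genes 7.46% were higher and 6.81% lower without overlap. The genes that rose included 5 of 6 in the carnitine uptake and shuttle group and 3 of 8 dehydrogenases grouped here as straight-chain. The others were both subunits of the trifunctional protein, Hadh, both auxiliary enzymes of unsaturated chains and Etfdh. The falls were both in dehydrogenases of branched-chain amino acid breakdown, and none of the 4 acyl-CoA synthetases passed. With library totals instead of TMM factors, the log2 fold changes of all genes had a median of 0.12 and 79.5% of all called genes were higher, against 53.2% with TMM; under that scaling the 14 genes that rose kept their calls and the 2 that fell lost theirs.

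**Figure D2:**
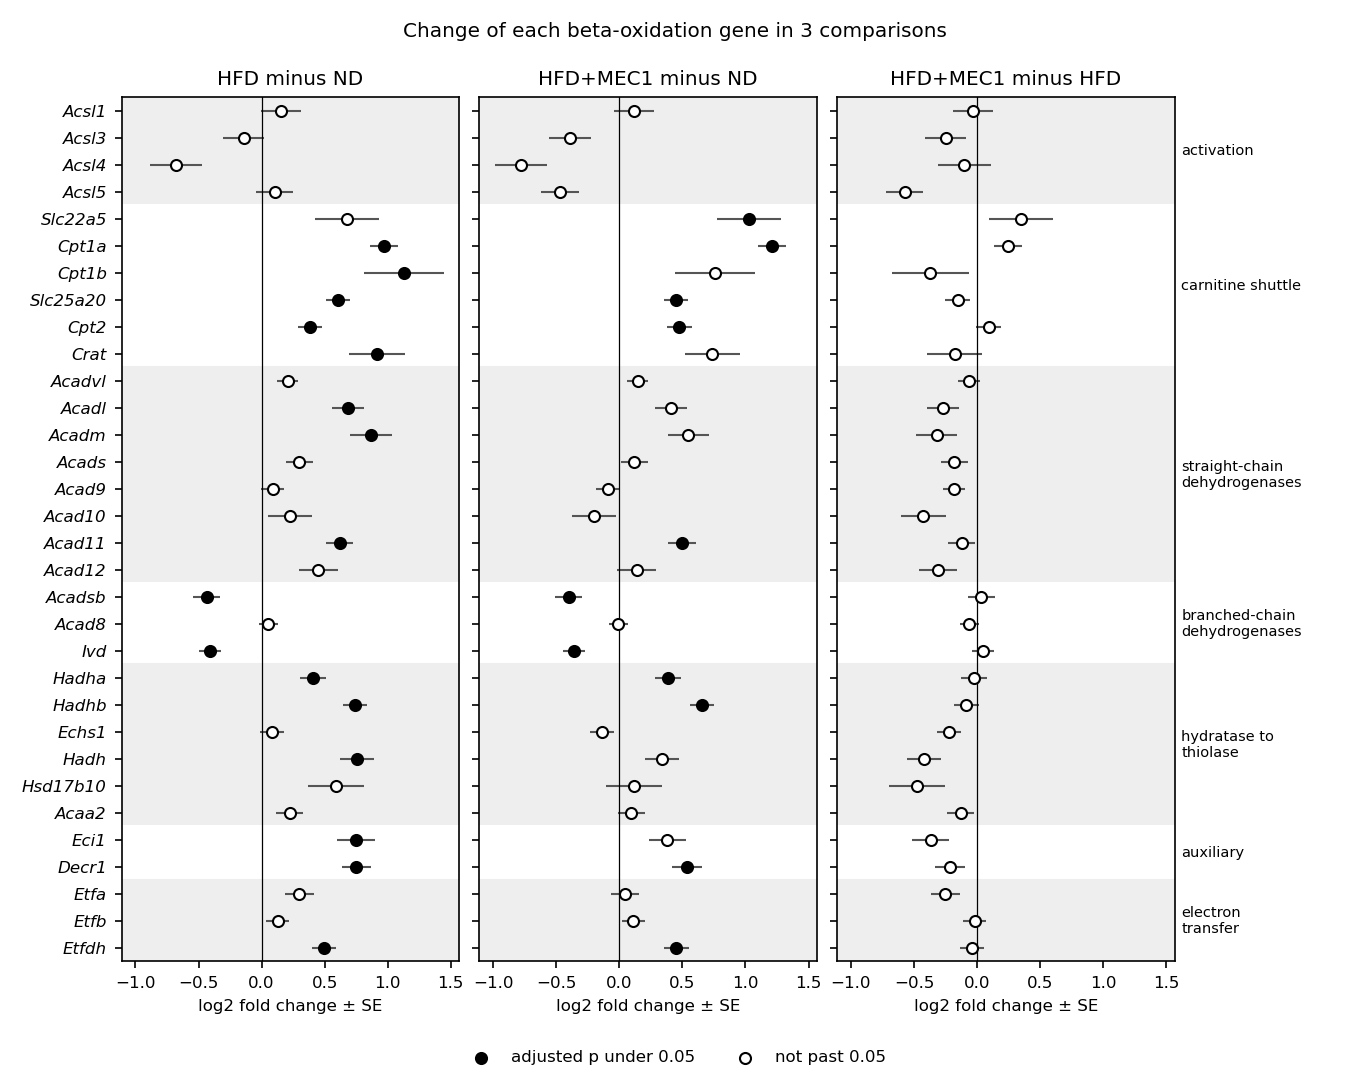
Log2 fold change ± SE of each gene in HFD minus ND, HFD+MEC1 minus ND and HFD+MEC1 minus HFD, grouped by role, with filled points for an adjusted p under 0.05. Of the 32 genes 16 are filled for HFD minus ND, 11 for HFD+MEC1 minus ND and 0 for HFD+MEC1 minus HFD.

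In the carnitine shuttle 5 of 6 genes rose on HFD and 0 fell. Cpt1a (GENCODE M21 on GRCm38, chromosome 19, 3322334 to 3385733), the regulated entry enzyme, had 338, 342, 392 and 382 CPM in HFD, against 183, 176, 213 and 171 CPM in ND. Every HFD library lay above every ND library, with a wide gap between the groups. The log2 fold change was 0.97 ± 0.11 (adjusted p = 0.000185), which is the smallest adjusted p among the 32 in this comparison. Slc25a20 (chromosome 9, 108662088 to 108684641), the carrier that exchanges acylcarnitine for carnitine across the inner membrane, had 116, 130.1, 138 and 108 CPM in HFD, against 78.4, 87.6, 81.3 and 76.7 CPM in ND. The groups did not overlap and the log2 fold change was 0.61 ± 0.10 (adjusted p = 0.00198). Cpt2 (chromosome 4, 107903981 to 107923610), which returns the acyl group to coenzyme A in the matrix, had 129.6, 158, 159 and 133 CPM in HFD, against 106, 111, 118 and 110.0 CPM in ND. Its lowest HFD library lay a little above its highest ND library, for a log2 fold change of 0.38 ± 0.10 (adjusted p = 0.0283). By RPKM, Cpt1a stood at 1.52 ± 0.0211 times Cpt2 in HFD+MEC1, 1.38 ± 0.158 times in HFD and 0.909 ± 0.0652 times in ND.

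Crat (chromosome 2, 30400471 to 30415813), carnitine acetyltransferase, which buffers short acyl groups, had 53.5, 74.1, 83.5 and 62.7 CPM in HFD, against 41.6, 32.3, 40.3 and 31.0 CPM in ND. The HFD libraries were widely spread but all above ND (log2 fold change 0.91 ± 0.22, adjusted p = 0.0313). Cpt1b (chromosome 15, 89416405 to 89425863) had 2.32, 2.07, 3.25 and 1.96 CPM in HFD, against 1.74, 1.06, 0.846 and 0.745 CPM in ND. The groups did not overlap, although ND replicate 1 came close to the lowest HFD library, and the log2 fold change was 1.13 ± 0.31 (adjusted p = 0.0419). In the annotation 81.4% of the exonic bases of Cpt1b lie also in Gm44502 on the same strand, a gene the tables list at 26.5 ± 4.10 CPM in HFD+MEC1, 25.3 ± 4.72 CPM in HFD and 19.7 ± 2.59 CPM in ND (log2 fold change of HFD over ND 0.36 ± 0.14, adjusted p = 0.143). How reads in the shared exons were assigned is not given in the sources used here, so the Cpt1b values are uncertain. The member of the shuttle group that missed the threshold was Slc22a5, the plasma membrane carnitine transporter, with 18.3, 27.9, 27.9 and 18.4 CPM in HFD, against 14.2, 14.9, 15.4 and 13.2 CPM in ND. Its ranges did not overlap, but with a log2 fold change of 0.68 ± 0.25 the adjusted p was 0.15. The Cpt2, Crat and Cpt1b calls were each lost when any of 5 or 6 single libraries was left out, among them ND replicates 2 and 4 and HFD replicates 2 and 3.

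Acyl-CoA dehydrogenases carry out the first oxidation. Of the 8 grouped here as straight-chain, 3 rose and 0 fell. The grouping was made by gene name, and substrates were not measured. Acad11 (chromosome 9, 104063377 to 104127725), a later-described member of the family, had 395, 443, 435 and 356 CPM in HFD, against 267, 267, 268 and 259 CPM in ND. The ND libraries were almost level, and every HFD library lay above them (log2 fold change 0.62 ± 0.11, adjusted p = 0.00342). Acadl (chromosome 1, 66830839 to 66863277), the long-chain enzyme, had 198, 223, 228 and 189 CPM in HFD, against 143, 133, 124 and 122 CPM in ND. The gap between its groups was wider than the range within either group, and the log2 fold change was 0.68 ± 0.13 (adjusted p = 0.00489). Acadm (chromosome 3, 153922357 to 153944632), the medium-chain enzyme, had 360.0, 439, 475 and 297 CPM in HFD, against 227, 220.3, 213 and 201 CPM in ND. HFD replicate 3 was highest and HFD replicate 4 lowest on the diet, both above ND (log2 fold change 0.87 ± 0.16, adjusted p = 0.00597).

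The other 5 dehydrogenases of the straight-chain group had positive log2 fold changes that missed the threshold. Acad12 (chromosome 5, 121596775 to 121618938), a low-abundance member whose gene lies 2087 bases from Acad10 on the same strand, had 10.1, 8.31, 11.8 and 8.65 CPM in HFD, against 7.04, 6.41, 6.77 and 8.21 CPM in ND. Its HFD range lay just above its ND range (log2 fold change 0.45 ± 0.15, adjusted p = 0.0988). Acadvl, the very-long-chain enzyme, averaged 426 ± 15.8 CPM in HFD and 369 ± 9.21 CPM in ND (log2 fold change 0.21 ± 0.08, adjusted p = 0.161). The ranges of Acadvl did not overlap; 42.9% of its exonic bases overlap Dvl2 on the opposite strand, which averaged 3.01 ± 0.624 CPM in HFD and 3.79 ± 0.308 CPM in ND. By RPKM, Acadl stood at 0.554 ± 0.0313 times Acadvl in HFD and 0.400 ± 0.0264 times in ND. Acads (the short-chain enzyme), Acad9 and Acad10 had log2 fold changes of 0.30, 0.09 and 0.23 with overlapping ranges (adjusted p = 0.109, 0.632 and 0.512). Acad9 also serves in assembly of respiratory complex I. Acads and Acad12 passed with library totals and Acadvl with DESeq2, each in 1 of 21 alternatives.

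Among the branched-chain dehydrogenases 2 of 3 fell on HFD, and these are enzymes of amino acid breakdown rather than of fatty acid oxidation proper. Ivd (chromosome 2, 118861954 to 118882909), isovaleryl-CoA dehydrogenase of leucine breakdown, had 120.5, 109.8, 107 and 119 CPM in HFD, against 146, 168, 153 and 141 CPM in ND. Every HFD library lay below every ND library (log2 fold change -0.41 ± 0.09, adjusted p = 0.0107). Acadsb (chromosome 7, 131410601 to 131448944), the short/branched-chain enzyme of isoleucine breakdown, had 151, 149, 112 and 139 CPM in HFD, against 192, 204, 161 and 186 CPM in ND. HFD replicate 3 was the lowest library and the groups did not overlap (log2 fold change -0.44 ± 0.11, adjusted p = 0.0229). Acad8, isobutyryl-CoA dehydrogenase of valine breakdown, averaged 54.9 ± 2.60 CPM in HFD and 53.0 ± 1.67 CPM in ND (log2 fold change 0.05 ± 0.08, adjusted p = 0.755). The Ivd call was lost with library totals and with RPKM, and the Acadsb call with library totals and without any of 4 single libraries; both kept their direction in all 21 alternatives.

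Of the 6 enzymes that carry out hydration, the second oxidation and cleavage, 3 rose. Hadhb (chromosome 5, 30155248 to 30184593) and Hadha (chromosome 5, 30118304 to 30155162) encode the beta and alpha subunits of the mitochondrial trifunctional protein, which handles long chains. Their RefSeq promoter windows share 228 bases. Hadhb had 85.1, 87.5, 106 and 86.8 CPM in HFD, against 57.6, 51.2, 58.3 and 51.3 CPM in ND. HFD replicate 3 stood above the other HFD libraries, which were level, and all 4 lay above ND (log2 fold change 0.74 ± 0.10, adjusted p = 0.000507). Hadha had 309, 336, 375 and 324 CPM in HFD, against 262, 261, 240.1 and 249.7 CPM in ND. The groups did not overlap, at a log2 fold change of 0.41 ± 0.10 (adjusted p = 0.0263), and this call was lost without any of 5 single libraries. By RPKM the ratio of Hadha to Hadhb was 2.09 ± 0.219 in HFD+MEC1, 2.00 ± 0.0696 in HFD and 2.53 ± 0.233 in ND. The ratio ranges of HFD (1.92 to 2.08) and ND (2.23 to 2.77) did not overlap, although the genes lie 85 bases apart in GENCODE M21.

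Hadh (chromosome 3, 131233419 to 131272101), the hydroxyacyl-CoA dehydrogenase of medium and short chains, had 386, 385, 459.9 and 322 CPM in HFD, against 222, 247, 236 and 214 CPM in ND. All HFD libraries were above ND (log2 fold change 0.76 ± 0.13, adjusted p = 0.0036). Hsd17b10 acts on short and branched chains and is also a subunit of mitochondrial ribonuclease P. It averaged 177 ± 34.6 CPM in HFD and 117 ± 19.3 CPM in ND without overlap. The gene missed the threshold (log2 fold change 0.59 ± 0.22, adjusted p = 0.151), but passed with DESeq2 and with only HFD and ND fitted. Acaa2 and Echs1, the short-chain hydratase, had log2 fold changes of 0.22 ± 0.11 and 0.08 ± 0.10 (adjusted p = 0.246 and 0.691).

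Both auxiliary enzymes for unsaturated chains rose on HFD. Decr1 (chromosome 4, 15917240 to 15945507), the dienoyl-CoA reductase, had 213, 233, 259 and 201 CPM in HFD, against 143, 139, 132 and 125 CPM in ND. Eci1 (chromosome 17, 24426641 to 24439348), the enoyl-CoA isomerase, had 155, 148, 179 and 136 CPM in HFD, against 88.9, 95.2, 106 and 78.0 CPM in ND. In both genes the lowest HFD library was well above the highest ND library. Their log2 fold changes were nearly equal, at 0.75 ± 0.12 for Decr1 (adjusted p = 0.00152) and 0.75 ± 0.15 for Eci1 (adjusted p = 0.00846). In electron transfer 1 of 3 genes rose. Etfdh (chromosome 3, 79603788 to 79629500), which passes electrons from the flavoprotein to ubiquinone, had 293, 302, 313 and 268 CPM in HFD, against 212, 219, 216 and 188 CPM in ND. The groups did not overlap (log2 fold change 0.49 ± 0.10, adjusted p = 0.00674). Etfa had 379, 399.8, 359 and 374 CPM in HFD, against 332, 321, 282 and 294 CPM in ND, without overlap. It did not pass (log2 fold change 0.30 ± 0.11, adjusted p = 0.138), except when only HFD and ND were fitted. Etfb, with overlapping groups, stood at 0.13 ± 0.09 (adjusted p = 0.47); 58.2% of the exonic bases of Etfb lie also in other annotated genes on its strand.

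The acyl-CoA synthetases activate fatty acids for entry: of Acsl1, Acsl3, Acsl4 and Acsl5, 0 passed on HFD with edgeR, and 1 had an unadjusted p under 0.05. That gene was Acsl4, which prefers polyunsaturated chains, with 68.9, 61.1, 57.9 and 82.7 CPM in HFD, against 115, 102, 94.8 and 121 CPM in ND. All HFD libraries lay below ND (log2 fold change -0.68 ± 0.21, adjusted p = 0.0796), and the gene passed with DESeq2, with only HFD and ND fitted, with the replicate block and without HFD+MEC1 replicate 3. Acsl1, Acsl3 and Acsl5 had log2 fold changes of 0.15 ± 0.16, -0.14 ± 0.16 and 0.10 ± 0.15, with 95% intervals of -0.19 to 0.49, -0.49 to 0.21 and -0.21 to 0.42.

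**Figure D3:**
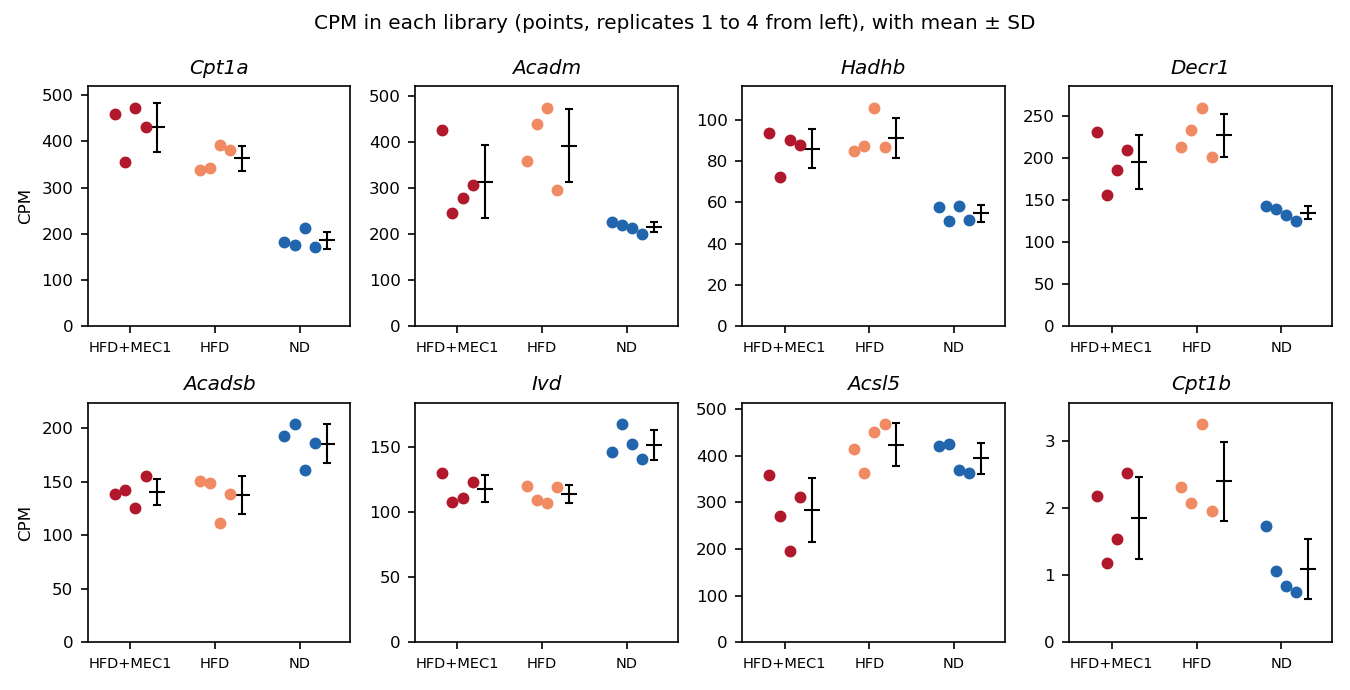
CPM of 8 genes in each library (points, replicates 1 to 4 from the left in HFD+MEC1, HFD and ND), with mean ± SD beside them. Cpt1a, Acadm, Hadhb, Decr1 and Cpt1b lie higher in HFD than in ND without overlap, Acadsb and Ivd lie lower, and Acsl5 lies lower in HFD+MEC1 than in HFD.

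The 10 calls for Cpt1a, Slc25a20, Acadl, Acadm, Acad11, Hadhb, Hadh, Eci1, Decr1 and Etfdh were kept under all 21 alternatives run. The count of genes past the threshold was 11 of the 32 without HFD replicate 3 or without ND replicate 4, against 16 with all libraries.

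Randomisation applied to HFD+MEC1 against HFD, which tests the compound in animals on the same diet. With edgeR, 0 of the 32 genes passed in either direction; over all tested genes 0.00706% rose and 0.0212% fell. The median log2 fold change of the 32 was -0.17, against 0.01 over all tested genes. Negative values were held by 27 of the 32, while 51.1% of all tested genes were positive. An unadjusted p under 0.05 was reached by 8 of the 32, with Cpt1a higher and Acsl5, Acadl, Acad10, Echs1, Hadh, Eci1 and Etfa lower in HFD+MEC1; over all tested genes 14.8% reached it. DESeq2 called 1 of the 32, where it called 389 of the 14172 tested genes. Limma-voom called 0 of the 32, where it called 1 over all tested genes. The ranges did not overlap for 1 gene, lower in HFD+MEC1, against 3.98% lower and 3.13% higher without overlap over all tested genes.

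That gene was Acsl5 (chromosome 19, 55251938 to 55297720), an acyl-CoA synthetase of liver and intestine, with 359.5, 270.4, 197 and 312 CPM in HFD+MEC1, against 415, 364, 450.1 and 468 CPM in HFD. Its highest HFD+MEC1 library lay just below the lowest HFD library. The log2 fold change was -0.58 ± 0.15 with a 95% interval of -0.89 to -0.26 and an adjusted p of 0.113. It passed with DESeq2 and without HFD+MEC1 replicate 1, and ND averaged 395 ± 32.7 CPM. Hadh had 361, 261, 232 and 308 CPM in HFD+MEC1, against 388 ± 56.2 CPM in HFD. HFD+MEC1 replicate 1 fell inside the HFD range and the other 3 lay below it (log2 fold change -0.42 ± 0.13, adjusted p = 0.171).

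Cpt1a was 1 of 5 genes whose mean was higher in HFD+MEC1 than in HFD, with Slc22a5, Cpt2, Acadsb and Ivd. It had 460.3, 356, 473 and 432 CPM in HFD+MEC1, against 363 ± 27.3 CPM in HFD. The groups overlapped through HFD+MEC1 replicate 2, and the log2 fold change of 0.24 ± 0.11 (95% interval 0.01 to 0.48) had an adjusted p of 0.32. Cpt1b had 2.18, 1.18, 1.54 and 2.52 CPM in HFD+MEC1, against 2.40 ± 0.585 CPM in HFD, with overlapping ranges (log2 fold change -0.37 ± 0.31, adjusted p = 0.616). Slc22a5 had 32.3, 17.2, 44.4 and 24.0 CPM in HFD+MEC1, against 23.1 ± 5.51 CPM in HFD. The HFD+MEC1 libraries of Slc22a5 spread from below to above the whole HFD range (log2 fold change 0.35 ± 0.25, adjusted p = 0.566).

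All 8 dehydrogenases of the straight-chain group had negative log2 fold changes in HFD+MEC1 against HFD, and 0 of them passed. Acadm had 427, 245, 279 and 307 CPM in HFD+MEC1, against 393 ± 79.9 CPM in HFD. Acadl had 225, 136, 161 and 172 CPM in HFD+MEC1, against 209.6 ± 18.9 CPM in HFD. In both genes HFD+MEC1 replicate 1 was the highest of its group and lay within the HFD range. The log2 fold changes were -0.32 ± 0.16 for Acadm (adjusted p = 0.375) and -0.27 ± 0.13 for Acadl (adjusted p = 0.33). Acad12 had 8.24, 5.97, 8.98 and 8.17 CPM in HFD+MEC1, against 9.70 ± 1.59 CPM in HFD. Its ranges overlapped as well (log2 fold change -0.31 ± 0.15, adjusted p = 0.362). The largest negative value of the family was that of Acad10, at -0.43 ± 0.18 (adjusted p = 0.28).

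Hadha had 389, 298, 297 and 337 CPM in HFD+MEC1, against 336 ± 28.1 CPM in HFD, with overlapping ranges. Its log2 fold change was -0.03 ± 0.10 with a 95% interval of -0.24 to 0.19, and that of Hadhb was -0.09 ± 0.10 with an interval of -0.29 to 0.12. Among the enzymes after the first oxidation, the values ranged from that of Hadha to -0.48 ± 0.22 for Hsd17b10 (adjusted p = 0.348). Eci1 stood at -0.37 ± 0.15 and Decr1 at -0.22 ± 0.12, and the electron transfer genes at -0.25 ± 0.11 for Etfa, -0.02 ± 0.09 for Etfb and -0.04 ± 0.10 for Etfdh. Ivd and Acadsb, the genes that fell on HFD, stood at 0.05 ± 0.09 and 0.03 ± 0.11. The count past the threshold was 3 without HFD+MEC1 replicate 1 (Acsl5, Acadl and Hadh, all lower) and 0 without any other single library.

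The comparison of HFD+MEC1 with ND shares the ND libraries with HFD against ND. Of the 32 genes 9 rose in HFD+MEC1, 2 fell and 21 did not pass, while over all tested genes 2.15% rose and 2.40% fell. The median log2 fold change was 0.14, against 0.00 over all tested genes. Positive values were held by 23 of the 32, against 50.6% of all tested genes. The ranges of 12 genes were higher without overlap and those of 4 lower, against 5.13% and 5.84% of all tested genes. With library totals 66.8% of all called genes were higher, against 47.2% with TMM.

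Of the genes that rose, 6 belong to the carnitine shuttle or the trifunctional protein. Cpt1a had the largest rise of the 32, at 1.21 ± 0.11 (adjusted p = 3.32e-05), with 430.2 ± 52.5 CPM in HFD+MEC1 and 186 ± 19.1 CPM in ND (n = 4 each). Hadhb averaged 86.1 ± 9.32 CPM in HFD+MEC1 and 54.6 ± 3.90 CPM in ND, a log2 fold change of 0.66 ± 0.10 (adjusted p = 0.00134). Cpt2 averaged 155 ± 17.2 CPM in HFD+MEC1 and 111 ± 5.24 CPM in ND (log2 fold change 0.48 ± 0.10, adjusted p = 0.0111). These calls of Cpt1a, Hadhb and Cpt2 were kept under all 21 alternatives. Etfdh, Decr1, Slc25a20 and Acad11 rose by 0.45 ± 0.10, 0.54 ± 0.12, 0.45 ± 0.10 and 0.50 ± 0.11 on the log2 scale (adjusted p = 0.0134, 0.0142, 0.0143 and 0.0147). Each of these 4 calls was lost without ND replicate 4, when the count past the threshold was 4, and was kept in the other alternatives. Without ND replicate 2 the count was 7.

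Slc22a5 averaged 29.5 ± 11.7 CPM in HFD+MEC1 and 14.4 ± 0.950 CPM in ND (log2 fold change 1.03 ± 0.26, adjusted p = 0.0446), and Hadha 330.2 ± 43.5 and 253 ± 10.3 CPM (log2 fold change 0.38 ± 0.10, adjusted p = 0.0448). Both calls were lost in 13 of 21 alternatives. Ivd and Acadsb fell, with log2 fold changes of -0.36 ± 0.09 and -0.40 ± 0.11 (adjusted p = 0.0255 and 0.0429), and lost their calls in 7 and 12 of 21 alternatives. Acadm (log2 fold change 0.55 ± 0.16, adjusted p = 0.069), Acadl (0.41 ± 0.13, adjusted p = 0.0775), Cpt1b (0.76 ± 0.32, adjusted p = 0.197) and Acad12 (0.14 ± 0.15, adjusted p = 0.691) did not pass. Acsl4 and Acsl5 lay below ND in every HFD+MEC1 library without passing, at -0.78 ± 0.21 and -0.47 ± 0.15 (adjusted p = 0.0574 and 0.0847). Acsl4 passed in 5 of 21 alternatives: DESeq2, limma-voom, the replicate block and without HFD+MEC1 replicate 2 or 3. Acsl5 passed in 2, DESeq2 and without HFD+MEC1 replicate 1.

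Set side by side, 8 genes rose against ND in both HFD and HFD+MEC1, 2 fell in both, 6 rose in HFD alone (Cpt1b, Crat, Acadl, Acadm, Hadh and Eci1) and 1 in HFD+MEC1 alone (Slc22a5). The difference between the diet groups is the comparison of HFD+MEC1 with HFD, in which none of these 7 passed with edgeR, so they are not shown to differ. In HFD+MEC1 against ND, Crat, Acadl and Acadm also passed with DESeq2 and without HFD+MEC1 replicate 2, and Acadm without HFD replicate 4. In HFD against ND, Slc22a5 also passed with DESeq2, with only the 2 groups fitted and without HFD+MEC1 replicate 3. The HFD+MEC1 mean lay between the HFD and ND means for 22 of the 32 genes and above the ND mean for 23. Over all tested genes 50.6% had a positive log2 fold change in HFD+MEC1 against ND, and the share lying between was not computed. Spread among the HFD libraries alone moves genes toward that order, so the 22 are no measure of a return toward ND.

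**Figure D4:**
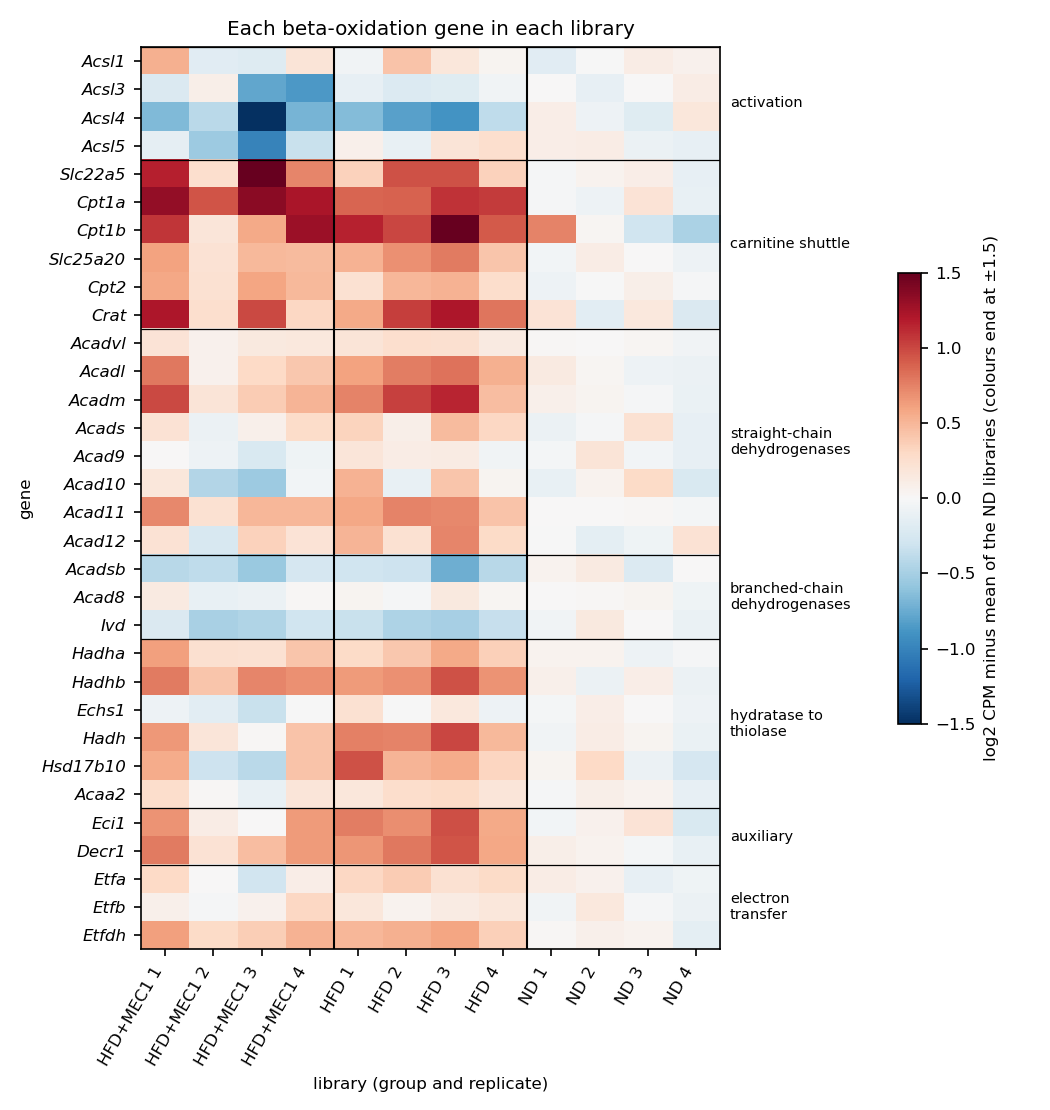
Log2 CPM of each gene in each library minus its mean in ND, by role, with HFD+MEC1, HFD and ND libraries from left to right. The median over the rows is 0.55 in HFD+MEC1 replicate 1 and 0.06 and 0.07 in replicates 2 and 3, and the Cpt1a row is raised in all 8 libraries on the high-fat diet.

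The HFD+MEC1 libraries differed among themselves more than those of the other groups. The median over the 32 genes of log2 CPM minus the ND mean was 0.55, 0.06, 0.07 and 0.31 in HFD+MEC1 replicates 1 to 4, 0.34, 0.42, 0.54 and 0.30 in HFD and 0.01, 0.05, 0.01 and -0.10 in ND. By this median HFD+MEC1 replicate 1 was level with the highest HFD library, and replicates 2 and 3 had medians near 0. The middle of the genes ran wider in those 2 libraries than in ND, with quartiles of -0.16 and 0.22 in replicate 2 and -0.30 and 0.47 in replicate 3. In replicate 3 the genes lay on both sides of ND, Cpt1a far above it and Acsl4 far below. Over all tested genes the same median was between -0.00 and 0.01 in every library, where TMM scaling holds it by design. HFD+MEC1 replicate 1 was the highest of its group for 21 of the 32 genes and lowest for 0, while replicate 2 was lowest for 18 and replicate 3 for 13. The coefficient of variation was largest in HFD+MEC1 for 27 of the 32 genes, and this share was not computed over all tested genes. Its median over the 32 was 15.1% in HFD+MEC1, 10.7% in HFD and 7.46% in ND. Over all tested genes the medians were 15.1%, 13.8% and 14.1% in the same order. Among genes with a mean of 10 CPM or more, the medians were 13.5%, 10.7% and 7.24% for 30 of the 32 genes, against 10.3%, 9.42% and 9.78% for all 7377 such genes. The labels name no batch for these libraries, and what sets them apart was not tested.

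Of 65 other genes of the pathway and its control, chosen from general knowledge, 63 were in the tables and all 63 were tested. On HFD against ND 15 of these rose and 4 fell, where 3.35% of all tested genes rose and 2.95% fell. In HFD+MEC1 against ND 9 rose and 3 fell, where 2.15% and 2.40% of all tested genes did. In HFD+MEC1 against HFD 0 passed with edgeR. There 22 of the 63 had an unadjusted p under 0.05, 4 higher and 18 lower, against 14.8% of all tested genes. Limma-voom called 0, and DESeq2 called 1 higher and 3 lower and gave no adjusted p for 3. Over all tested genes DESeq2 called 146 higher and 243 lower. Ppara, which encodes PPAR-alpha, averaged 249 ± 35.2 CPM in HFD+MEC1, 223 ± 13.1 CPM in HFD and 137 ± 16.2 CPM in ND. It rose in HFD+MEC1 against ND (0.85 ± 0.11, adjusted p = 0.00067) and in HFD against ND (0.70 ± 0.11, adjusted p = 0.00187), with neither range overlapping ND. Esrra, which encodes an estrogen-related receptor that regulates mitochondrial genes, fell, with log2 fold changes of -0.73 ± 0.12 in HFD+MEC1 against ND and -0.52 ± 0.12 in HFD against ND (adjusted p = 0.00366 and 0.0182); the second call was lost without HFD replicate 2 or 3. The Ppara calls were kept under all 21 alternatives.

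Among 13 known PPAR-alpha targets outside mitochondrial oxidation, 7 rose in HFD+MEC1 against ND and 8 rose in HFD against ND, where 2.15% and 3.35% of all tested genes rose. DESeq2 called 10 and 12 of the 13, where it called 548 and 717 of the 14172 tested genes higher. Vnn1, a pantetheinase, averaged 78.8 ± 35.7 CPM in HFD+MEC1, 124 ± 35.3 CPM in HFD and 13.7 ± 3.30 CPM in ND. It rose in HFD+MEC1 and in HFD against ND. Eci2, a second enoyl-CoA isomerase, rose by 0.91 ± 0.12 in HFD+MEC1 against ND and by 0.85 ± 0.12 in HFD against ND (adjusted p = 0.00086 and 0.00078). Of the 6 genes that control malonyl-CoA, 2 fell in HFD+MEC1 against ND, where 2.40% of all tested genes fell. In HFD against ND 0 passed with edgeR, DESeq2 or limma-voom, and 0 had an unadjusted p under 0.05. In HFD+MEC1 against HFD 0 passed with edgeR or limma-voom, so with these the 2 are not shown to differ between the diet groups. DESeq2 called 1 of the 6 lower there, where it called 243 of the 14172 tested genes lower. With edgeR 3 of the 6 had an unadjusted p under 0.05, all lower, against 14.8% of all tested genes. Acacb, the acetyl-CoA carboxylase that makes malonyl-CoA at the mitochondrial surface, averaged 38.1 ± 5.02 CPM in HFD+MEC1, 77.5 ± 40.7 CPM in HFD and 121 ± 8.03 CPM in ND. Its log2 fold change was -1.67 ± 0.32 in HFD+MEC1 against ND (adjusted p = 0.0173), a call lost without HFD+MEC1 replicate 4, and -1.03 ± 0.32 in HFD+MEC1 against HFD (adjusted p = 0.186). In HFD against ND it was -0.64 ± 0.31 (adjusted p = 0.283), and without HFD replicate 4 it was -1.03 and passed (adjusted p = 0.0176). Prkaa2, a catalytic subunit of AMP-activated protein kinase, fell in HFD+MEC1 against ND (log2 fold change -0.40 ± 0.09, adjusted p = 0.0222), a call lost in 7 of 21 alternatives.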

How the data were processed

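Liver RNA was sequenced in 12 libraries, 4 per group, and groups and replicate numbers were taken from the sample titles. Per the file headers, the authors deposited raw counts for each gene symbol, in whole numbers and 1 file per library, and RPKM values in a joint table. The submitters' processing notes name STAR 2.7.10a and mm10; the counter, its annotation and its use of strand are not given in the sources used here. The RPKM table held 12 further columns that match no sample, which were not used. Totals of 39916405 to 51340317 counts per library mean that sampling error is small beside the spread between libraries for all but the rarest genes.

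Counts were filtered with filterByExpr, scaled by TMM and fitted with edgeR 4.0.16 in R 4.3.3 (robust quasi-likelihood, 3 groups in 1 model, common biological coefficient of variation 0.200), after the fit had been tested on simulated data. P-values are two-sided and Benjamini-Hochberg adjusted over 14172 genes, with 0.05 as the threshold and no minimum fold; logarithms of CPM used a prior count of 2. RPKM, normalised by the authors, served to compare genes and, as log2(RPKM + 0.1) and log2(RPKM + 1) in limma 3.58.1, as an alternative, as did DESeq2 1.42.0, limma-voom, other scalings, no filter, fits to 2 groups, a replicate block and leaving out each library. No pair of libraries within a group agreed within sampling noise, the smallest chi-square between replicates being 36.2 per gene. Gene positions and overlaps are from GENCODE M21 and promoter windows from RefSeq.

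All 32 genes are named. Values per library are given for genes past the threshold and for Cpt1a, Cpt1b, Acadl, Acadm, Hadha and Acad12 in any case; Slc22a5, Acsl4 and Acsl5 were added after their values were seen. The genes, the lists and the tests were chosen with earlier results of these data known. The values of 1 listed gene outside the 32 are not reported here.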

Additional observations from a re-analysis of the deposited data

Results flagged for a closer look

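In each of 96 groups of 4 libraries (32 genes in 3 groups) the highest and the lowest library were set against the others, and 2 stood apart, where chance alone flags about 1 group in 20. Hadhb in HFD replicate 3 reached 106 CPM, while the remaining HFD libraries held 85.1 to 87.5 CPM. Acad11 in ND replicate 4 read 259 CPM and its fellow ND libraries 267 to 268 CPM, a small difference beside an otherwise level group.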

How the results depend on the processing

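For HFD minus ND, 893 genes passed; DESeq2 called 1391, and leaving out 1 library each gave 435 to 1110, lowest without HFD replicate 3. Of the 32 beta-oxidation genes 16 passed, 20 with DESeq2 and 11 to 18 without 1 library each. For HFD+MEC1 minus HFD, 4 genes passed, against 0 with library totals, 17 with no filter on low counts, 389 with DESeq2, 1 with limma-voom, 0 and 1 with RPKM + 0.1 and RPKM + 1, and 0 to 457 without 1 library each, highest without HFD+MEC1 replicate 1. Of the 32 genes 0 passed, against 1 with DESeq2 and 0 to 3 without 1 library each. For HFD+MEC1 minus ND, 644 genes passed, against 1155 with DESeq2 and 330 to 684 without 1 library each; of the 32 genes 11 passed, 16 with DESeq2 and 4 to 14 without 1 library each. The share of called genes that were higher in HFD minus ND was 53.2%, against 72.7% and 71.8% with RPKM + 0.1 and RPKM + 1; in HFD+MEC1 minus ND it was 47.2%, against 63.3% and 62.3%. The causes were not tested.

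Signs turned for genes with small log2 fold changes and no call. In HFD+MEC1 minus HFD, Acadsb was at -0.013 with library totals, and ranges without 1 library each were -0.20 to 0.069 for Acsl1, -0.25 to 0.098 for Acsl4, -0.054 to 0.087 for Acadsb, -0.0018 to 0.091 for Ivd, -0.11 to 0.032 for Hadha, -0.087 to 0.025 for Etfb and -0.099 to 0.014 for Etfdh. In HFD+MEC1 minus ND, Acad8 was at 0.067 with library totals, 0.068 with RPKM + 0.1 and 0.064 with RPKM + 1, and ranges without 1 library each were -0.051 to 0.21 for Acsl1, -0.061 to 0.021 for Acad8, -0.058 to 0.26 for Hsd17b10 and -0.050 to 0.14 for Etfa. Libraries that share a number are not shown to be paired: the correlation of their deviations from the group means ran from -0.09 to 0.13. With the replicate block, 896 genes and 17 of the 32 passed in HFD minus ND, 21 and 0 in HFD+MEC1 minus HFD, and 716 and 11 in HFD+MEC1 minus ND. Depth limits Cpt1b most, with 35 counts in its lowest library.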
